A study of Homo sapiens with 21 samples.

Results

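The 32 genes described here were higher in Hs746T cells whenever a MET inhibitor was present, in cells newly exposed to drug and in cells that had been selected to grow in it. Hs746T is a human gastric carcinoma cell line that depends on the receptor tyrosine kinase MET, and cabozantinib and crizotinib are small molecules that block MET and some other kinases. A probe set was taken when its mean log2 level was at least 1 (2-fold) above the control line on DMSO in each of 6 drug groups. Of 34235 probe sets, 47 (0.137%) met this rule, and 32 of them carry a gene symbol, each of a different gene. The other 15 have no symbol in the table used for names and are not described. The genes were thus chosen by their 6 differences from DMSO, which are given below as descriptions with no test.

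RNA was measured on 21 Affymetrix arrays, 3 for each of 7 groups that the labels call biological triplicates. The groups are cabozantinib-resistant lines 1 and 2 on 1 µM cabozantinib, crizotinib-resistant lines 1 and 2 on 1 µM crizotinib, the control line on 1 µM cabozantinib, the control line on 1 µM crizotinib, and the control line on 0.1% DMSO, all for 72 h. The resistant lines came from a stepwise increase in dose until cells grew in 1 µM of their drug, while the control line was kept in DMSO over the same time. Each resistant line was derived once, so the spread between its arrays says nothing of how far repeated derivations would differ. Drug-free cultures of the resistant lines were not analysed here, and a difference between a resistant line and the DMSO group holds both the line and the drug. For the crizotinib-resistant samples 1 label field names cabozantinib, but their titles and their treatment label name crizotinib, and the titles were followed. Values are log2 RMA levels per probe set. Array medians lay between 2.84 and 2.91, replicate arrays correlated with each other at 0.977 to 0.987, and no detection calls were given, so a level near the array median was not shown to lie above background.

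MET signals through the RAS to ERK and PI3K to AKT cascades, which drive division and hold FOXO transcription factors out of the nucleus. When such a receptor is blocked, cells usually leave the cycle, ERK target genes fall, and genes of quiescence, lysosomes and matrix often rise. A separate route, the Hippo pathway, senses adhesion and cytoskeletal tension: its output factors YAP and TAZ bind TEAD proteins and switch on genes such as CYR61 and ANKRD1. Several module genes belong to these programmes, and others encode secreted, membrane and trafficking proteins.

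The cell type was checked against marker lists. Group means of 13 measured markers of gastric epithelium ran from 1.21 (GKN2) to 5.41 (KRT18), with 0 of 13 higher in any drug group than on DMSO. Lower than on DMSO were 2 in each cabozantinib-resistant line and 0 and 1 in crizotinib-resistant lines 1 and 2. In the control line 1 was lower with each drug. CDH1, the epithelial cadherin, averaged from 3.16 to 3.62 over the 7 groups, and the mucin MUC5AC from 3.17 to 3.48, little above the array medians, and these markers did not show a gastric epithelial identity. Of 7 measured mesenchymal markers, FN1 is itself a module gene, VIM averaged from 6.65 to 6.89 and CDH2 from 6.76 to 7.87. Of the 6 non-members, 2, 1, 2 and 2 were higher than on DMSO in the 4 resistant lines, cabozantinib lines 1 and 2 first. In each of these lines 2 of the 6 were lower. In the control line 3 were higher and 1 lower with each drug, and no mesenchymal identity was assigned from these markers. Of 9 measured blood and endothelial markers, PTPRC lay between 1.20 and 1.40, below every array median, whereas CD68, which many cultured lines express, reached 10.09. Division differed sharply between the groups: all 20 measured genes of DNA replication and mitosis were lower in the control line on cabozantinib and on crizotinib than on DMSO (medians of -3.68 and -3.38), and all 20 were higher in each resistant line than in the control line on the same drug (medians of 2.90, 3.01, 2.67 and 2.09 in cabozantinib-resistant lines 1 and 2 and crizotinib-resistant lines 1 and 2). Against DMSO, 7, 6, 7 and 15 of the 20 were lower in those lines and 2, 1, 0 and 0 higher, with medians of -0.61, -0.44, -0.44 and -1.03, the lowest in crizotinib-resistant line 2. Over all probe sets, 8.18% were called higher and 7.31% lower than DMSO in cabozantinib-resistant line 1 (15.5% in all), and 6.07% and 6.73% in line 2 (12.8%). The shares were 6.76% and 7.46% in crizotinib-resistant line 1 (14.2%) and 7.7% and 9.47% in line 2 (17.2%). They were 7.26% and 10.1% in the control line on cabozantinib (17.3%) and 7.21% and 9.15% on crizotinib (16.4%). The part of cell division in the module's values was not tested.

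Over the 32 genes, all 18 drug arrays lay above all 3 DMSO arrays for every gene, which the choice of genes favours. The smallest of the 6 differences ran from 1.01 for FKBP7 to 2.53 for PSG5, with a median of 1.33. The largest ran from 1.40 for KLF11 to 5.33 for ANKRD1. PSG5 and CYR61 were the only members with at least 2 (4-fold) in every drug group. The next by smallest difference were MYO1D, AJUBA, SMYD3, ARMC9, ANKRD1, CGNL1, ABLIM1 and GLT8D2. The median difference of the 32 from DMSO was 1.76 and 1.75 in cabozantinib-resistant lines 1 and 2, 1.75 and 2.21 in crizotinib-resistant lines 1 and 2, 1.88 in the control line on cabozantinib and 1.84 on crizotinib, while the medians over all probe sets lay between -0.01 and 0.04. The largest of a gene's 6 values fell in crizotinib-resistant line 2 for 15 of the 32, and the smallest in line 1 of cabozantinib or of crizotinib for 10 each. Over all probe sets, 2.06%, 1.49%, 1.59% and 2.13% stood at least 1 above DMSO in cabozantinib-resistant lines 1 and 2 and crizotinib-resistant lines 1 and 2, and 1.59% and 1.46% in the control line on cabozantinib and on crizotinib.

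**Figure D1:**
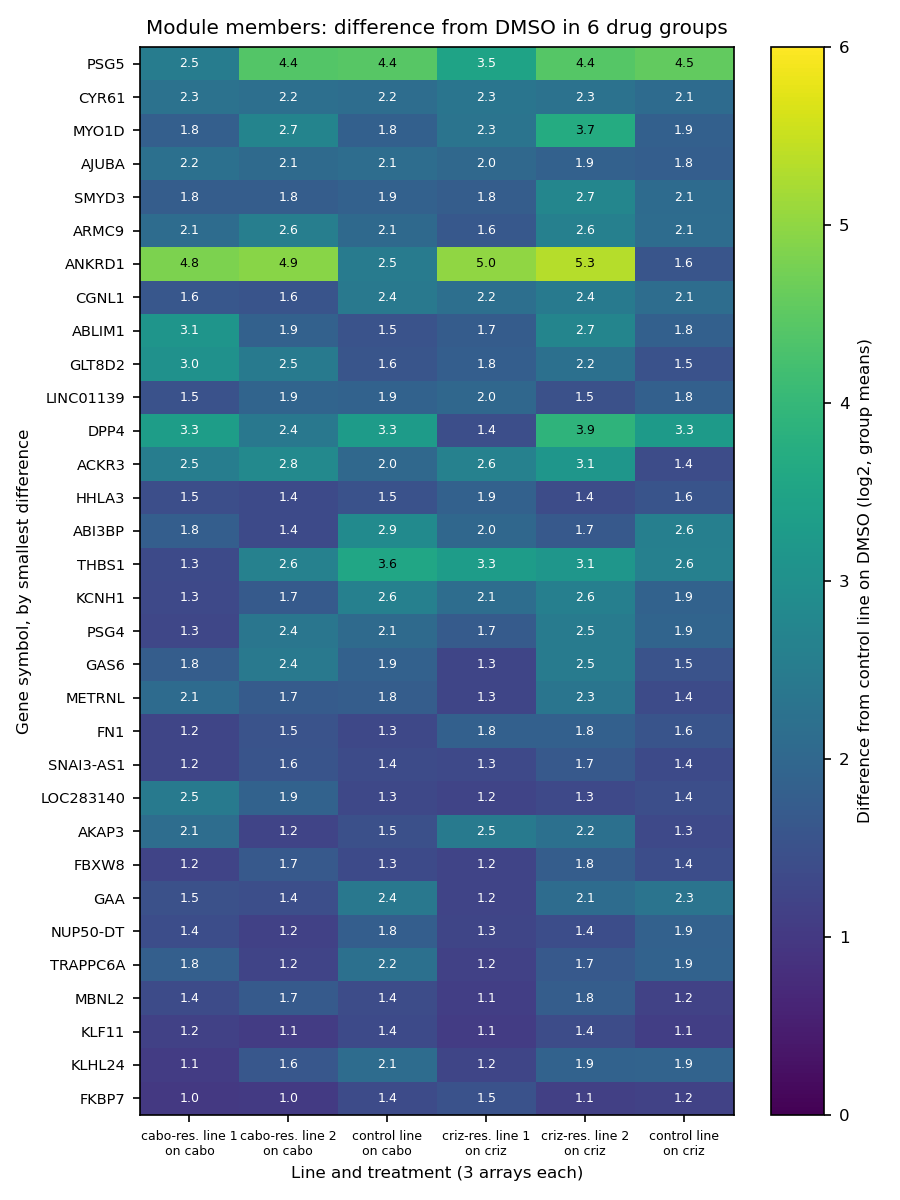
Difference of the group mean from the control line on DMSO (log2, colour and printed value) for the 32 genes (rows, by smallest difference) in the 6 drug groups (columns, 3 arrays each; cabo is cabozantinib and criz is crizotinib). ANKRD1 reached 4.81 to 5.33 in the 4 resistant lines, against 2.49 and 1.59 in the control line on cabozantinib and crizotinib, while CYR61 stayed between 2.09 and 2.34 throughout.

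Membership at the margin rests on small differences. Just inside were MBNL2 (smallest difference 1.11), KLF11 (1.06), KLHL24 (1.06) and FKBP7 (1.01). Just outside were ZDHHC7 (0.997), KIAA0513 (0.997), NMT2 (0.991) and SEMA3B (0.991). ABLIM1 and ARMC9 each have a second probe set that missed the rule, with smallest differences of 0.98 and 0.75. 3 members had a DMSO mean below the lowest array median (PSG4 at 2.01, GLT8D2 at 2.52 and KCNH1 at 2.75), so their true differences from DMSO can be larger than measured.

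Whether a gene stood at another level in cells growing in drug than in newly exposed cells was tested between each resistant line and the control line on the same drug, with limma over all probe sets and a Benjamini-Hochberg adjusted p under 0.05 as the call. These comparisons hold no DMSO array, and lines 1 and 2 of a drug share the same 3 control arrays. The same drug arrays did choose the genes, however, so a gene that had lost its rise in any line is missing from the set by construction. In cabozantinib-resistant line 1, 6 of the 32 genes were higher and 9 lower, against 11.4% and 8.14% of all probe sets (19.5% in either direction). In line 2, 9 were higher and 9 lower, against 9.62% and 7.31% of all probe sets (16.9%). In crizotinib-resistant line 1, 5 were higher and 8 lower, against 9.53% and 7.68% (17.2%). In line 2, 17 were higher and 2 lower, against 7.91% and 6.61% (14.5%). As shares of the 32, the genes called came to 46.9% and 56.3% in cabozantinib-resistant lines 1 and 2 and 40.6% and 59.4% in crizotinib-resistant lines 1 and 2. The count in crizotinib-resistant line 2 was 12 in place of 19 without its replicate 3. The genes with calls that held under every alternative setting numbered 13, 13, 8 and 11 in that order of lines. Where a call was lost by leaving out arrays, the range given beside it below is that of the difference over all arrays left out in turn, those that kept the call included.

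The 32 genes were not held at the level of the newly exposed control line as a block. ANKRD1 was the only gene higher in all 4 resistant lines, and ABI3BP the only one lower in all 4. ACKR3, AKAP3 and GLT8D2 were higher in 3 lines, and GAA and KLHL24 lower in 3. ARMC9, DPP4, KCNH1, PSG4 and THBS1 were higher in some lines and lower in others. AJUBA, CYR61, FKBP7, HHLA3, KLF11 and SNAI3-AS1 were called in no line. In all, 13 genes were called only higher and 8 only lower, in 1 or more lines. Shares over all probe sets were computed for each line alone and not across lines, so these counts only describe the members.

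**Figure D2:**
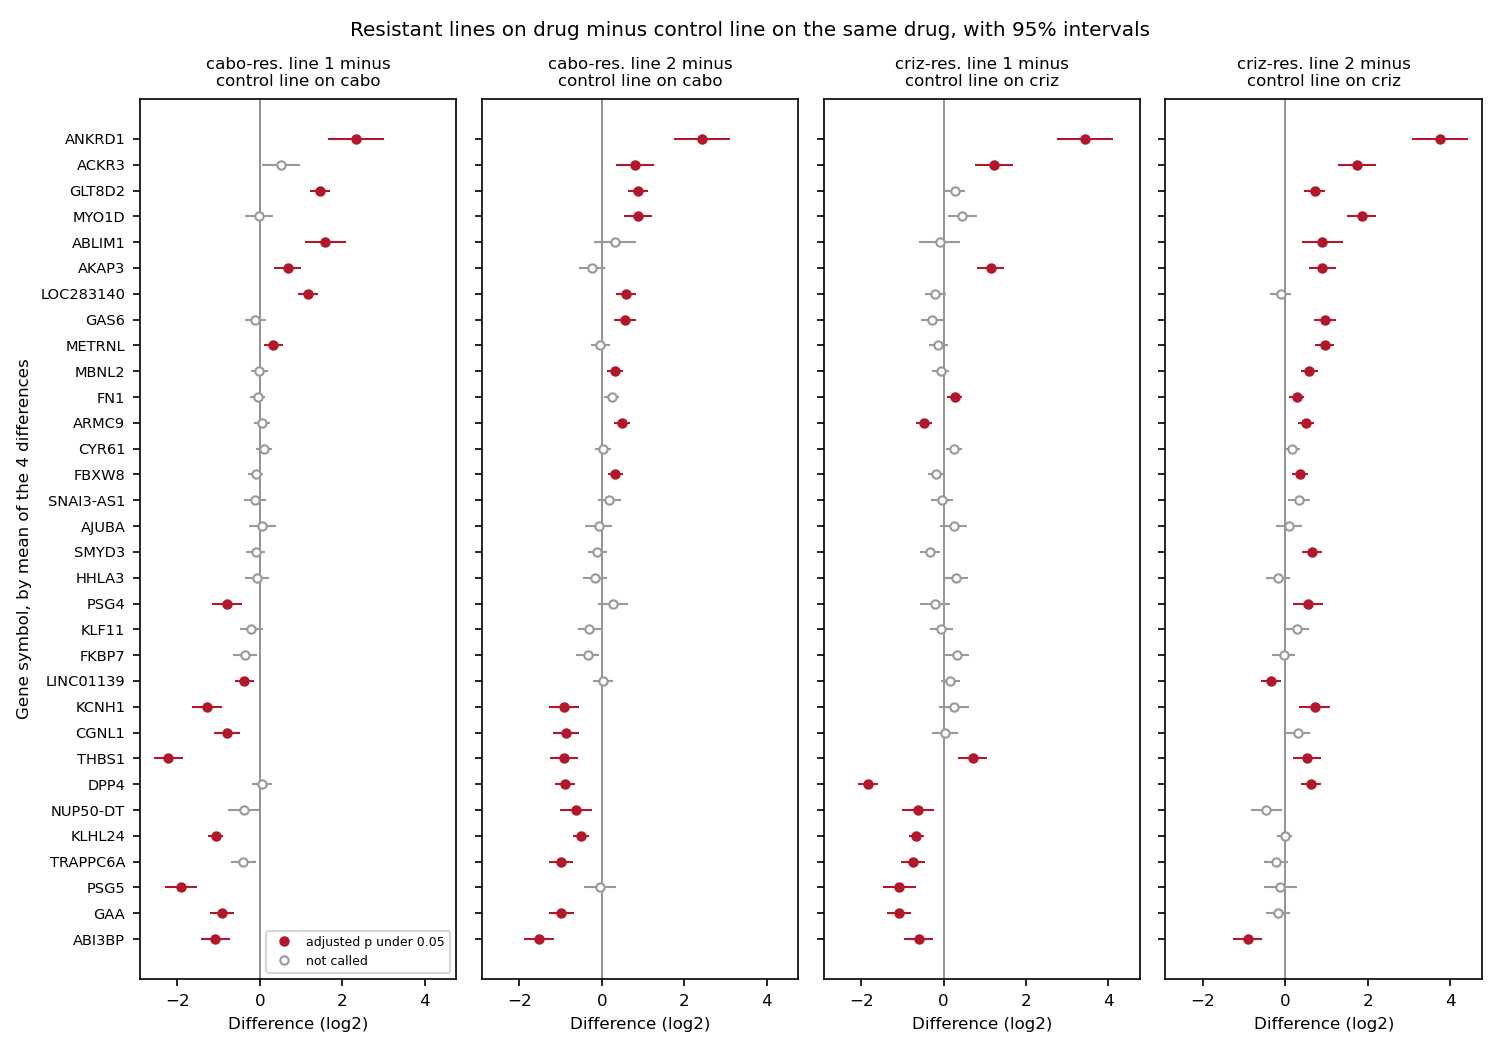
Difference of each resistant line from the newly exposed control line (log2, points, with 95% intervals as bars) for the 32 genes (rows, by the mean of the 4 differences), filled where the limma adjusted p is under 0.05. ANKRD1 lies right of 0 in all 4 panels (2.33 to 3.74) and ABI3BP left of 0 in all 4 (-0.60 to -1.52), while THBS1 lies on both sides.

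The Hippo pathway outputs named above, CYR61 and ANKRD1, are members, but they were named with the members known. Of 15 measured genes of a YAP and TAZ target signature, 2 are members. CYR61 encodes a secreted matrix-associated protein that binds integrins (also called CCN1). Its RMA levels were 7.08, 7.15 and 7.04 in cabozantinib-resistant line 1, 6.97, 7.06 and 7.01 in line 2 and 6.79, 7.01 and 7.15 in the control line on cabozantinib. They were 7.19, 7.16 and 7.17 in crizotinib-resistant line 1, 7.06, 7.15 and 7.05 in line 2 and 6.94, 6.92 and 6.90 in the control line on crizotinib, against 4.93, 4.66 and 4.90 in the control line on DMSO. No drug array overlapped with DMSO, and the 6 drug group means differed by at most 0.25, the narrowest range among the 32 genes. The differences between each resistant line and its drug-treated control were 0.11, 0.032, 0.25 and 0.17 (SE 0.093), none passed (limma adjusted p from 0.0786 to 0.896), and their 95% intervals reached at most 0.45 from 0.

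ANKRD1, which encodes an ankyrin repeat protein found in the nucleus and in muscle sarcomeres, behaved otherwise. It measured 9.23, 9.29 and 9.10 in cabozantinib-resistant line 1 and 9.38, 9.33 and 9.26 in line 2, against 6.02, 7.78 and 6.84 in the control line on cabozantinib. It measured 9.24, 9.53 and 9.45 in crizotinib-resistant line 1 and 9.53, 9.79 and 9.84 in line 2, against 5.70, 6.67 and 5.56 in the control line on crizotinib. On DMSO the control line had 4.47, 4.59 and 4.12. Every resistant array lay above every control array, and the newly exposed arrays spread more widely (SD 0.88 on cabozantinib and 0.60 on crizotinib, against at most 0.17 in the resistant lines). The differences were 2.33 and 2.44 in cabozantinib-resistant lines 1 and 2 (SE 0.32; limma adjusted p = 2.71e-05 and 2.01e-05) and 3.43 and 3.74 in crizotinib-resistant lines 1 and 2 (adjusted p = 4.38e-07 and 2.52e-07). They correspond to 5.02-, 5.44-, 10.7- and 13.4-fold higher levels, and each was called under every alternative setting.

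THBS1 encodes thrombospondin 1, a secreted matrix glycoprotein that can activate latent TGFβ. It measured 7.67, 7.74 and 7.83 in cabozantinib-resistant line 1 and 8.98, 9.09 and 9.09 in line 2, against 9.70, 10.19 and 9.996 in the control line on cabozantinib. In crizotinib-resistant line 1 it measured 9.75, 9.62 and 9.84 and in line 2 9.50, 9.55 and 9.61, against 8.92, 9.48 and 8.69 in the control line on crizotinib. The DMSO arrays stood at 6.62, 6.37 and 6.24. The cabozantinib lines thus lay below their drug-treated control without overlap (-2.22 and -0.91, SE 0.16; limma adjusted p = 1.6e-08 and 0.000461), and the crizotinib lines above theirs (0.71 and 0.52; adjusted p = 0.00452 and 0.0385). The rise in crizotinib-resistant line 1 was not called in a fit of those groups alone (highest adjusted p 0.0915). That in line 2 was lost without any replicate of the line or without crizotinib control replicate 1 or 3 (0.35 to 0.75 over all arrays left out in turn), and also after a further quantile normalization or in a fit of the compared groups alone.

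Cytoskeleton and junction genes form another group. AJUBA, a LIM protein of cell junctions that binds the Hippo kinases LATS, stayed between means of 6.34 and 6.77 in all drug groups, against 4.56 ± 0.27 on DMSO (SD, n = 3), and was called in no line. MYO1D, an unconventional myosin motor, measured 7.40, 7.36 and 7.69 in cabozantinib-resistant line 2 against 6.57, 6.38 and 6.85 in the control line on cabozantinib, and 8.36, 8.46 and 8.59 in crizotinib-resistant line 2 against 6.75, 6.30 and 6.83 in the control line on crizotinib. Both lines numbered 2 were higher without overlap, by 0.88 and 1.85 (SE 0.16; limma adjusted p = 0.000714 and 3.63e-07). Lines 1 did not pass (-0.021 for cabozantinib and 0.46 for crizotinib). ABLIM1, which binds actin filaments, measured 6.04, 6.46 and 5.81 in cabozantinib-resistant line 1 against 4.44, 4.89 and 4.21 in its drug-treated control, a difference of 1.59 (adjusted p = 6.33e-05). In crizotinib-resistant line 2 it was 0.90 higher, a call lost without replicate 1 of the control line on crizotinib or replicate 3 of the line (0.70 to 1.07 over all arrays left out in turn). The other ABLIM1 probe set averaged 7.58 in cabozantinib-resistant line 1, against 6.76 in the control line on cabozantinib, but 7.01 in crizotinib-resistant line 2, against 6.90 in the control line on crizotinib, so the probe sets disagree in size there. CGNL1, a protein of tight and adherens junctions, was lower in both cabozantinib lines (-0.79 and -0.86, limma adjusted p = 0.000599 and 0.000312) and did not pass in the crizotinib lines (0.034 and 0.29).

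Promoter sequence was read for the 26 members with an entry among the RefSeq promoters (GRCh38.p14), as the 250 bases upstream of the annotated start. ANKRD1 and THBS1 are shown because they are the only 2 of these that hold GGAATG, the core to which TEAD proteins bind. Capitals mark GGAATG in both and also TGANTCA in ANKRD1. TGANTCA, with N as any base, is a looser spelling than the AP-1 core, which has C or G in the middle. The match in ANKRD1 reads TGATTCA and so is not that core. The ANKRD1 window is chr10:90921088-90921337 on the minus strand and the THBS1 window chr15:39580829-39581078 on the plus strand, both written 5′ to 3′ along the gene.
ANKRD1: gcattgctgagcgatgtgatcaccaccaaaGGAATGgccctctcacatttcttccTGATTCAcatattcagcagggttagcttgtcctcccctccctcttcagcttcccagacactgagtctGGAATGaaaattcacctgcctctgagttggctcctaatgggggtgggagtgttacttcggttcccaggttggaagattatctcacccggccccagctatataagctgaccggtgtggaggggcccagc
THBS1: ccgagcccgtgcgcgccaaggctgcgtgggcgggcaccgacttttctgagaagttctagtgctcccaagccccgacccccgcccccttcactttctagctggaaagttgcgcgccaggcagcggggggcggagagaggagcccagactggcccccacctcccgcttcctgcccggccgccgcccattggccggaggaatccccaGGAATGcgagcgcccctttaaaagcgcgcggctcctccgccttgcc
ANKRD1 holds GGAATG at 2 places, starting 220 and 128 bases before the start, and TGANTCA at 195. THBS1 holds GGAATG once, 46 bases before the start.

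Motif matches over the set were few. On either strand, GGAATG was found in 2 of 26 member promoters (7.69%), against 11.9% of 35116 promoters. The E-box CACGTG was found in 5 (19.2%), those of ARMC9, DPP4, FBXW8, GAA and KLF11, against 6.34% of all. TGANTCA was found in 3 (11.5%), those of ANKRD1, MBNL2 and KLHL24, against 6.57%. The FOXO core GTAAACA and the CArG box, at which SRF binds, were found in 0 of 26, against 2.98% and 1.16% of all. None of the 4 spelled motifs overlapped another in the members. A match is a string of letters and not a measured binding site, and the promoter of CYR61 was not analysed here.

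Matrix and secreted proteins make up a further group. FN1, the adhesive matrix protein fibronectin, had drug group means between 11.34 and 11.93, against 10.09 ± 0.09 on DMSO (SD, n = 3). It was 0.27 and 0.28 higher in crizotinib-resistant lines 1 and 2 than in the control line on crizotinib (limma adjusted p = 0.0358 and 0.0359). Both calls were lost when single arrays were left out, namely without any replicate of the control line or without replicate 1 or 3 of line 1 (0.19 to 0.34), and without any 1 of the 6 arrays for line 2 (0.24 to 0.30). Neither was called in a fit of the compared groups alone.

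ABI3BP encodes an extracellular matrix protein. It measured 5.80, 5.80 and 5.74 in cabozantinib-resistant line 1 and 5.23, 5.43 and 5.35 in line 2, against 6.47, 6.97 and 7.14 in the control line on cabozantinib. It measured 6.001, 5.71 and 6.23 in crizotinib-resistant line 1 and 5.62, 5.68 and 5.69 in line 2, against 6.48, 6.58 and 6.68 in the control line on crizotinib, and the DMSO arrays stood at 3.78, 3.81 and 4.37. All 12 resistant arrays lay below their drug-treated controls and above DMSO. The differences were -1.08, -1.52, -0.60 and -0.92 (SE 0.17; limma adjusted p = 0.000103, 2.84e-06, 0.0183 and 0.000782). The third of these, in crizotinib-resistant line 1, was lost without replicate 2 of the line or replicate 3 of the control line on crizotinib (-0.47 to -0.73 over the arrays left out) and in a fit of those groups alone.

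GAS6 and METRNL encode secreted signalling proteins. GAS6 is the ligand of the receptor kinases AXL, TYRO3 and MERTK. It measured 6.80, 6.80 and 6.92 in cabozantinib-resistant line 2 against 5.94, 6.40 and 6.50 in the control line on cabozantinib, and 6.85, 6.98 and 6.90 in crizotinib-resistant line 2 against 5.86, 6.10 and 5.89 in the control line on crizotinib. The lines numbered 2 were higher, by 0.56 (limma adjusted p = 0.00262, not called in a fit of those groups alone, highest adjusted p 0.0805) and 0.96 (adjusted p = 1.77e-05), and lines 1 did not pass (-0.11 and -0.28). METRNL, a meteorin-like cytokine, was 0.96 higher in crizotinib-resistant line 2 (adjusted p = 5.53e-06). In cabozantinib-resistant line 1 it was 0.33 higher, a call lost without replicate 1 or 3 of the control line or without any replicate of the line (0.27 to 0.37), with the replicate number as a block, after a further quantile normalization and in a fit of those groups alone. Of 31 other measured receptor kinases and ligands, 4, 4, 6 and 3 were higher and 4, 4, 7 and 7 lower than on DMSO in cabozantinib-resistant lines 1 and 2 and crizotinib-resistant lines 1 and 2, with medians from -0.053 to -0.012. In the control line, 8 were higher and 4 lower on cabozantinib, and 6 and 3 on crizotinib. IGF1R, named for its large difference, averaged 5.24 and 5.74 in cabozantinib-resistant lines 1 and 2 and 4.66 and 5.04 in crizotinib-resistant lines 1 and 2, against 4.28 and 3.59 in the control line on cabozantinib and on crizotinib and 2.78 on DMSO.

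PSG5 and PSG4 encode pregnancy-specific glycoproteins, secreted by the placental trophoblast. PSG5 had the largest rise over DMSO that was kept in every group. It measured 7.56, 7.57 and 6.73 in cabozantinib-resistant line 1 and 9.04, 9.10 and 9.32 in line 2, against 9.08, 9.24 and 9.27 in the control line on cabozantinib. It measured 8.18, 8.19 and 8.34 in crizotinib-resistant line 1 and 9.14, 9.15 and 9.27 in line 2, against 9.21, 9.50 and 9.21 in the control line on crizotinib and 4.44, 5.05 and 4.78 on DMSO. Both lines numbered 1 were lower than the drug-treated control without overlap (-1.91 and -1.07, SE 0.19; limma adjusted p = 4.99e-07 and 0.000389), while lines 2 did not pass (-0.042 and -0.12). PSG4 was -0.80 in cabozantinib-resistant line 1 (adjusted p = 0.00219) and 0.55 in crizotinib-resistant line 2 (adjusted p = 0.0415), a rise lost without replicate 2 or 3 of the line or of the control line (0.47 to 0.67) and in a fit of those groups alone. Since PSG genes are close copies of one another, their probes may bind transcripts of other family members, and which copy was measured is uncertain.

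The 2 PSG genes lie 2 places apart in the RefSeq gene order of chromosome 19, closer than any other pair of matched members. Their upstream windows are shown because the copies also resemble each other there. In a gapped alignment of the windows, 209 of 281 columns (74.4%) held the same base. Columns with a gap were counted as differing, so bases that were paired matched more often than this share. PSG3, which is no member, reached 72.0% against PSG5 by the same measure. The longest run shared by PSG5 and PSG4, 89 bases, is in capitals. The windows are chr19:43186537-43186786 for PSG5 and chr19:43205639-43205888 for PSG4 (RefSeq, GRCh38.p14), both on the minus strand and written 5′ to 3′ along the gene.
PSG5: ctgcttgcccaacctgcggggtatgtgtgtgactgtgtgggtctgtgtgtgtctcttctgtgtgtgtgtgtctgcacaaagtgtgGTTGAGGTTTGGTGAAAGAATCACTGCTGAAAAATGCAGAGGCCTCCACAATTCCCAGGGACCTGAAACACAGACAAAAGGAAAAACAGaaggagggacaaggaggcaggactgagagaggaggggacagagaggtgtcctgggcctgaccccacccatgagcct
PSG4: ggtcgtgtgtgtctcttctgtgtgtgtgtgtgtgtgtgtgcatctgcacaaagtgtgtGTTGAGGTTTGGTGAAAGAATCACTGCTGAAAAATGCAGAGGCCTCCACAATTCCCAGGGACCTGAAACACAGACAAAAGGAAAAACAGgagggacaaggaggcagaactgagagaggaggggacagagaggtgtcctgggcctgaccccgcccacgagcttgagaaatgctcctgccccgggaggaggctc
No match to the 5 motifs above was found in either window.

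Of 8 measured PSG genes that are no members, 0 were higher and 2 lower in cabozantinib-resistant line 1 than on DMSO by limma. In cabozantinib-resistant line 2, 3 were higher and 0 lower, in crizotinib-resistant lines 1 and 2, 5 and 3 were higher and 0 lower, and in the control line 4 were higher and 0 lower with each drug. PSG1 averaged 3.27 ± 0.28 in cabozantinib-resistant line 1, against 8.75 ± 0.12 in the control line on cabozantinib and 5.35 ± 0.23 on DMSO (SD, n = 3 each). PSG9 averaged 4.17 ± 0.28 in that line, against 7.22 ± 0.19 and 4.09 ± 0.17. The gene PSG5, at 7.29 ± 0.48 in the same line, was the family member with the largest value over DMSO there.

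**Figure D3:**
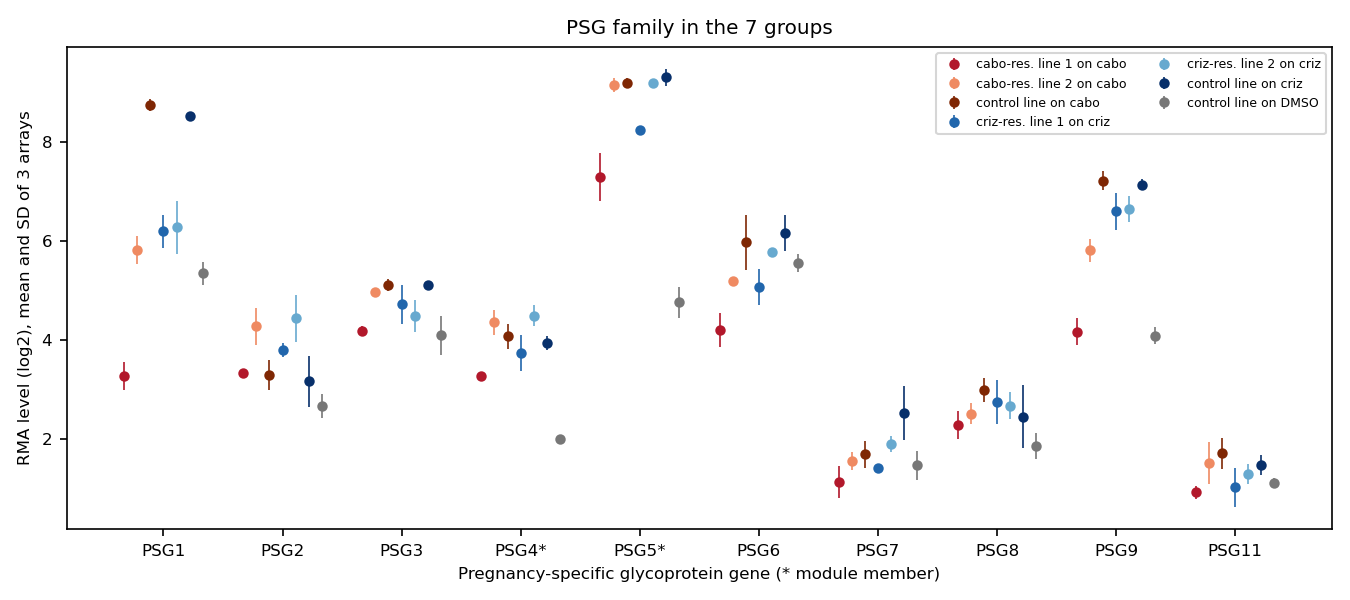
RMA level (log2, points are means and bars the SD of 3 arrays) of the 10 measured PSG genes in the 7 groups, with module members starred. PSG1 and PSG9 were high in the control line on drug (8.75 and 7.22 on cabozantinib) and low in cabozantinib-resistant line 1 (3.27 and 4.17), whereas PSG5 stood at 7.29 or more in every drug group.

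Of the cell surface proteins, DPP4 (CD26), a peptidase that trims peptide hormones and chemokines, differed most between the lines. It measured 8.37, 8.30 and 8.23 in cabozantinib-resistant line 1 and 7.46, 7.30 and 7.34 in line 2, against 8.36, 8.20 and 8.20 in the control line on cabozantinib. It measured 6.34, 6.15 and 6.72 in crizotinib-resistant line 1 and 8.86, 8.80 and 8.92 in line 2, against 8.36, 8.22 and 8.12 in the control line on crizotinib and 5.04, 4.93 and 4.92 on DMSO. It was lower in cabozantinib-resistant line 2 (-0.89, limma adjusted p = 1.96e-05) and in crizotinib-resistant line 1 (-1.83, adjusted p = 5.31e-09), higher in crizotinib-resistant line 2 (0.63, adjusted p = 0.000872), and did not pass in cabozantinib-resistant line 1 (0.048).

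ACKR3, an atypical receptor that scavenges the chemokine CXCL12, measured 6.23, 6.20 and 6.15 in cabozantinib-resistant line 1 and 6.35, 6.58 and 6.53 in line 2, against 5.66, 5.48 and 5.90 in the control line on cabozantinib. It measured 6.38, 5.93 and 6.57 in crizotinib-resistant line 1 and 6.51, 6.89 and 7.01 in line 2, against 5.04, 4.87 and 5.28 in the control line on crizotinib and 3.17, 4.21 and 3.60 on DMSO. All 12 resistant arrays lay above their drug-treated controls. The differences of 1.23 and 1.74 in crizotinib-resistant lines 1 and 2 passed (limma adjusted p = 0.000431 and 1.43e-05), as did that of 0.81 in cabozantinib-resistant line 2 (adjusted p = 0.0138), which was lost without replicate 2 of the line or of the control line (0.71 to 0.92). In cabozantinib-resistant line 1 it was 0.51 and did not pass (adjusted p = 0.122).

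KCNH1, a voltage-gated potassium channel, was lower in both cabozantinib lines (-1.28 and -0.91, limma adjusted p = 2.62e-05 and 0.000989). It was 0.71 higher in crizotinib-resistant line 2, a call lost without replicate 3 of the line or of the control line on crizotinib (0.60 to 0.80). AKAP3, an anchoring protein for protein kinase A known mainly from sperm, measured 5.87, 5.996 and 6.20 in crizotinib-resistant line 1 and 5.67, 5.82 and 5.81 in line 2, against 5.11, 4.55 and 4.96 in the control line on crizotinib. It was higher in these lines (1.15 and 0.89, limma adjusted p = 2.32e-05 and 0.00038) and in cabozantinib-resistant line 1 (0.68, adjusted p = 0.00326).

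**Figure D4:**
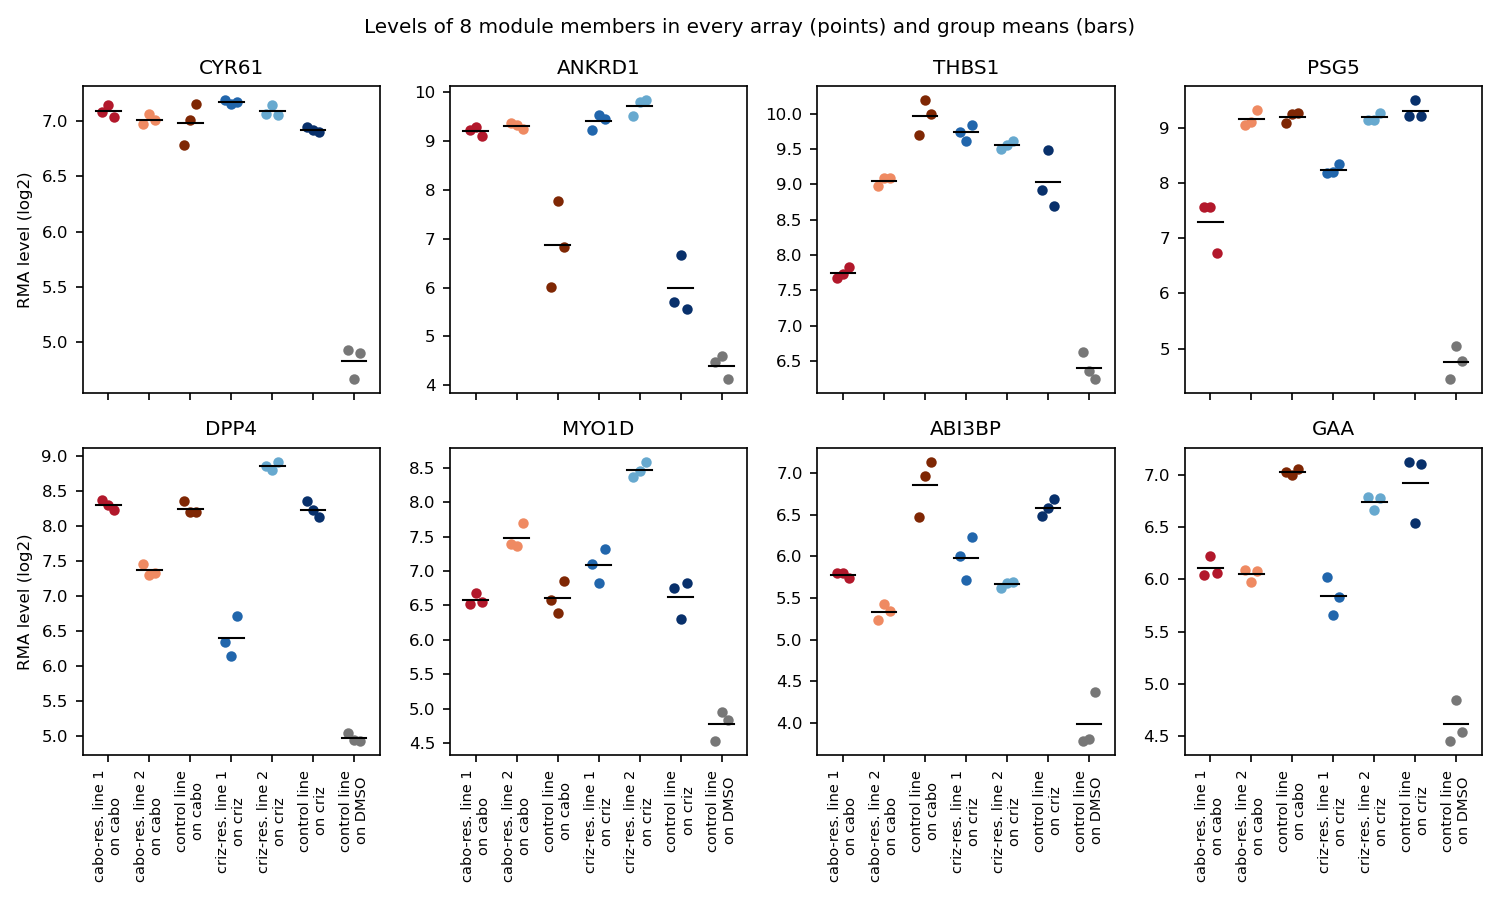
RMA level (log2) of 8 members in each array (points) with the group mean (horizontal line), resistant lines left of the control line on the same drug and the DMSO group last; each panel has its own axis. The 12 resistant ANKRD1 arrays lie above 9, against at most 7.78 in the control line on drug, whereas the ABI3BP arrays of all 4 resistant lines lie below the control line on drug.

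GAA, the lysosomal enzyme that breaks down glycogen, measured 6.04, 6.23 and 6.06 in cabozantinib-resistant line 1 and 6.09, 5.98 and 6.08 in line 2, against 7.02, 6.996 and 7.06 in the control line on cabozantinib. It measured 6.02, 5.66 and 5.84 in crizotinib-resistant line 1 and 6.79, 6.66 and 6.78 in line 2, against 7.13, 6.54 and 7.10 in the control line on crizotinib and 4.45, 4.85 and 4.54 on DMSO. It was lower in the first 3 of these lines without overlap (-0.92, -0.98 and -1.08, SE 0.14; limma adjusted p = 8.61e-05, 5.46e-05 and 1.82e-05), and overlapped with the control in crizotinib-resistant line 2 (-0.18). Its upstream window, chr17:80101331-80101580 on the plus strand (RefSeq, GRCh38.p14), is shown because it holds CACGTG at 2 places, in capitals, 76 and 31 bases before the start. This is the core of the sites at which the lysosomal regulators TFEB and MITF bind.
GAA: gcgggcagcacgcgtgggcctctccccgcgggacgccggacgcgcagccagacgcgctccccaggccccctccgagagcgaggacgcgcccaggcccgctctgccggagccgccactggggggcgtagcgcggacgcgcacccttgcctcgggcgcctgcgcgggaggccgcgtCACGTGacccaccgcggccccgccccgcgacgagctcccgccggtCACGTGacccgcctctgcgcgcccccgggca
Of the 20 other measured lysosome and autophagy genes, 11, 12, 13 and 16 were higher than on DMSO in cabozantinib-resistant lines 1 and 2 and crizotinib-resistant lines 1 and 2, and 15 and 14 in the control line on cabozantinib and on crizotinib (limma), with 0 to 2 lower in each group. Their median differences from DMSO were 0.41, 0.64, 0.49 and 0.80 in those lines, against 0.71 and 0.73 in the control line on drug. WIPI1, an early autophagy protein, averaged 8.52, 8.73, 8.03 and 9.34 in the 4 lines and 8.48 and 8.61 in the control line on cabozantinib and on crizotinib, against 7.25 on DMSO.

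Of the other enzymes and trafficking proteins, TRAPPC6A, a subunit of the TRAPP vesicle tethering complex, was lower in cabozantinib-resistant line 2 (-0.98, limma adjusted p = 4.38e-05) and crizotinib-resistant line 1 (-0.74, adjusted p = 0.00076, but 0.0536 in a fit of those groups alone). GLT8D2, a putative glycosyltransferase, measured 5.41, 5.62 and 5.62 in cabozantinib-resistant line 1 and 4.96, 4.99 and 4.96 in line 2, against 4.25, 4.03 and 3.99 in the control line on cabozantinib. It was higher in these lines (1.46 and 0.88, adjusted p = 5.24e-08 and 2.54e-05) and in crizotinib-resistant line 2 (0.71, adjusted p = 0.000314). FKBP7, a prolyl isomerase of the endoplasmic reticulum, kept a difference of 1.01 to 1.52 from DMSO and was called in no line.

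KLHL24, a substrate adaptor of a CUL3 ubiquitin ligase and the member that stands on the list of FOXO and quiescence targets, measured 6.98, 7.05 and 7.08 in cabozantinib-resistant line 1 and 7.58, 7.66 and 7.58 in line 2, against 8.15, 8.07 and 8.11 in the control line on cabozantinib. It measured 7.19, 7.12 and 7.38 in crizotinib-resistant line 1 and 7.72, 7.92 and 7.999 in line 2, against 7.91, 7.86 and 7.91 in the control line on crizotinib and 5.97, 6.05 and 5.92 on DMSO. Only crizotinib-resistant line 2 overlapped with its control (-0.014). The others were lower (-1.07, -0.50 and -0.66, SE 0.087; limma adjusted p = 4.75e-08, 0.000325 and 1.82e-05). Of the 16 other measured genes of that list, 9 to 12 were higher in the resistant lines than on DMSO and 12 in the control line with each drug, with 0 lower in any group. 10, 10, 7 and 6 of them were lower, and 1, 2, 2 and 4 higher, in cabozantinib-resistant lines 1 and 2 and crizotinib-resistant lines 1 and 2 than in the control line on the same drug. TXNIP, which inhibits thioredoxin, averaged 7.94, 7.30, 8.18 and 8.56 in these lines, 8.88 and 8.84 in the control line on cabozantinib and crizotinib, and 6.90 on DMSO.

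Further members regulate transcription, splicing and protein turnover. KLF11, a transcription factor of the TGFβ response, had drug group means between 5.75 and 6.10, against 4.70 ± 0.11 on DMSO (SD, n = 3), and was called in no comparison. SMYD3, a lysine methyltransferase, was 0.65 higher in crizotinib-resistant line 2 (limma adjusted p = 0.000453, but 0.0637 in a fit of those groups alone). MBNL2, a splicing regulator, was 0.58 higher in the same line (adjusted p = 0.000213). In cabozantinib-resistant line 2 it was 0.32 higher, a call lost without replicate 1 or 2 of the line or replicate 3 of the control line (0.25 to 0.36), after a further quantile normalization and in a fit of those groups alone. FBXW8, the F-box subunit of a CUL7 ubiquitin ligase, was 0.33 and 0.35 higher in lines 2 of cabozantinib and crizotinib. These calls were lost without replicate 3 of either group for cabozantinib (0.27 to 0.37) and without replicate 3 of the line for crizotinib (0.28 to 0.39), and both in fits of the compared groups alone. The first was also lost after a further quantile normalization. ARMC9, a protein of the ciliary base, was higher in both lines numbered 2 (0.50 and 0.50, adjusted p = 0.000891 and 0.00105) and lower in crizotinib-resistant line 1 (-0.47, adjusted p = 0.00142). Its other probe set disagreed for cabozantinib, averaging 4.15 in cabozantinib-resistant line 2, against 4.58 in the control line on cabozantinib. For crizotinib it averaged 4.16 in line 1 and 4.99 in line 2, against 4.41 in the control line on crizotinib, the same directions as the member.

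5 members are noncoding or uncharacterized transcripts, and no function is assigned to them here. SNAI3-AS1, HHLA3 and LINC01139 kept differences from DMSO of 1.25 to 1.69, 1.36 to 1.86 and 1.49 to 2.00. LINC01139 was lower in line 1 of cabozantinib and line 2 of crizotinib (-0.37 and -0.35). Both calls were lost, without replicate 1 or 2 of the control line or 2 or 3 of line 1 for cabozantinib (-0.30 to -0.46), and without replicate 1 or 3 of the control line or any replicate of line 2 for crizotinib (-0.29 to -0.43). NUP50-DT was lower in line 2 of cabozantinib and line 1 of crizotinib (-0.62 and -0.62), lost without replicate 1 or 3 of the control line or 1 or 2 of the line for cabozantinib (-0.46 to -0.83), and without replicate 1 or 2 of the control line or 2 or 3 of the line for crizotinib (-0.52 to -0.75). Fits of the compared groups alone also lost both LINC01139 calls and that of NUP50-DT for cabozantinib, and shifting arrays to the same median lost LINC01139 for crizotinib. LOC283140 measured 6.59, 6.32 and 6.40 in cabozantinib-resistant line 1 and 5.90, 5.83 and 5.84 in line 2, against 5.28, 5.40 and 5.13 in the control line on cabozantinib. It was higher in both cabozantinib lines (1.17 and 0.59, limma adjusted p = 7.37e-07 and 0.00147) and did not pass in the crizotinib lines.

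The drugs were also compared with each other in the control line. None of the 32 was called between the drugs by limma, with 0.0204% of all probe sets called (0.00292% higher and 0.0175% lower on cabozantinib), and 11 members had an unadjusted p under 0.05. For 28 of the 32 the 95% interval excluded a difference of 2-fold either way. The same arrays chose the genes by a rise with both drugs in this line. Genes that rose with only 1 of the drugs are thus missing by construction, and these counts do not show that the drugs act alike. For the other 4, it reached beyond 2-fold: THBS1 (0.94, 95% interval 0.59 to 1.28), ANKRD1 (0.90, 0.22 to 1.58), KCNH1 (0.72, 0.34 to 1.09) and ACKR3 (0.62, 0.16 to 1.08), each as cabozantinib minus crizotinib. THBS1 measured 9.70, 10.19 and 9.996 on cabozantinib and 8.92, 9.48 and 8.69 on crizotinib without overlap, with an adjusted p of 0.0709. It was called without replicate 2 of the crizotinib arrays (1.16, adjusted p = 0.0108) and, at 0.94, after a filter on dim probe sets (adjusted p = 0.0321) or with a trended, robust prior (adjusted p = 0.0274).

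The lines selected in the same drug differed at many members. Cabozantinib-resistant line 2 was higher than line 1 for 11 of the 32 and lower for 7, against 3.98% and 5.63% of all probe sets (9.61% in either direction). Crizotinib-resistant line 2 was higher than line 1 for 15 and lower for 2, against 5.61% and 6.13% (11.7%). A fit of the crizotinib lines alone called 11 members in place of 17. 14 genes were called for both drugs, 8 of them in the same direction, 4 for cabozantinib only, 3 for crizotinib only and 11 for neither, which does not show that they were equal. The share of all probe sets called for both drugs was not computed, so these joint counts only describe the members. Calls that held under every alternative setting numbered 13 for cabozantinib and 11 for crizotinib.

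PSG5 was higher in line 2 of both drugs (1.87 for cabozantinib and 0.95 for crizotinib, SE 0.19; limma adjusted p = 3.07e-06 and 0.00205), as were MYO1D (0.90 and 1.39), PSG4 (1.08 and 0.76), GAS6 (0.67 and 1.24), KLHL24 (0.57 and 0.65) and ARMC9 (0.44 and 0.97). For PSG4 the crizotinib difference was not called in a fit of those lines alone. DPP4 went opposite ways, -0.94 for cabozantinib and 2.46 for crizotinib (SE 0.12; limma adjusted p = 3.1e-05 and 7.2e-10). THBS1 was 1.30 higher in cabozantinib-resistant line 2 (adjusted p = 3.17e-05), and for crizotinib it did not pass (-0.18). AKAP3 was lower in cabozantinib-resistant line 2 (-0.91, adjusted p = 0.000568). ABLIM1 was -1.26 for cabozantinib and 0.99 for crizotinib, the second lost without replicate 2 of crizotinib-resistant line 1 (0.72 to 1.14 over the arrays left out) and in a fit of those lines alone. The other ABLIM1 probe set ran the opposite way for crizotinib, at 7.01 in line 2 and 7.24 in line 1, and for cabozantinib stood at 6.81 in line 2 and 7.58 in line 1. ANKRD1, CYR61, AJUBA, ABI3BP, ACKR3, CGNL1 and KCNH1 did not pass for either drug.

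**Figure D5:**
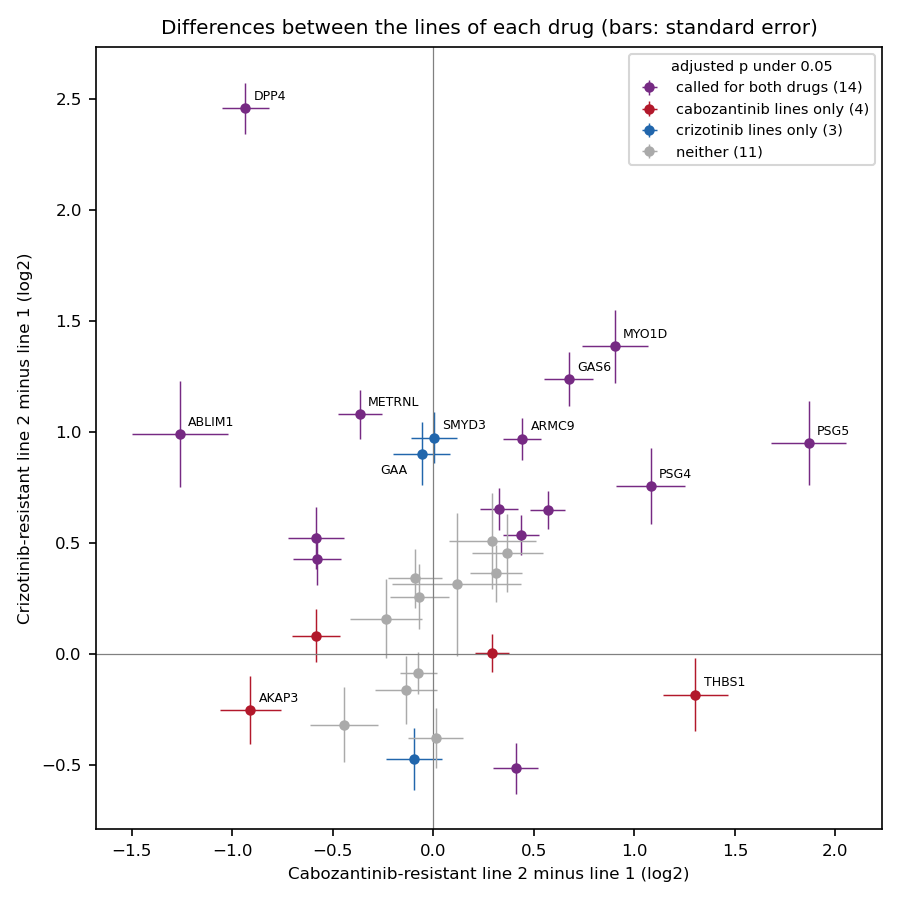
Level in line 2 minus line 1 (log2, with the standard error as bars) for the cabozantinib-resistant lines (horizontal axis) and the crizotinib-resistant lines (vertical axis), 1 point per gene, coloured by the limma calls. PSG5 lies at 1.87 and 0.95 and MYO1D at 0.90 and 1.39, while DPP4 lies at -0.94 and 2.46.

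The change on resistance (mean of both lines of a drug, less the control line treated with it) was compared between the drugs, as cabozantinib minus crizotinib. It was higher for cabozantinib at 2 members and lower at 5, with 3.32% of all probe sets called (2.11% higher and 1.22% lower). For THBS1 the change was -1.56 for cabozantinib and 0.61 for crizotinib, a difference of -2.18 (SE 0.20, limma adjusted p = 1.84e-05). For KCNH1 it was -1.10 for cabozantinib and 0.48 for crizotinib, a difference of -1.58 (adjusted p = 0.000569). For LOC283140 it was 0.88 for cabozantinib and -0.16 for crizotinib, a difference of 1.03 (adjusted p = 0.000719). CGNL1 (-0.99), AKAP3 (-0.80), KLHL24 (-0.45) and GLT8D2 (0.68) also passed. The AKAP3 call was lost without replicate 1 of the control line on cabozantinib or replicate 2 on crizotinib (-0.64 to -0.92), and that of KLHL24 without replicate 1 or 3 on cabozantinib or 1 or 2 on crizotinib (-0.41 to -0.49). ANKRD1 did not pass (-1.20, adjusted p = 0.124). The 2 lines of a drug are fixed in this test, so it does not set the difference between drugs against the spread between lines. Each difference in the change on resistance also contains that between the control line on the 2 drugs. There, cabozantinib minus crizotinib was 0.94 for THBS1, 0.72 for KCNH1, 0.27 for CGNL1, 0.16 for AKAP3 and 0.22 for KLHL24. It was 0.06 for GLT8D2 and -0.13 for LOC283140, and none of these was called by limma in the main fit.

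The wider programmes were read from gene lists. Of 13 measured genes of a YAP and TAZ target signature that are no members (a list added after values had been seen), 7 or 8 were higher and 0 to 2 lower in the resistant lines than on DMSO (limma). In the control line, 9 were higher and 2 lower on cabozantinib, and 10 and 2 on crizotinib, than on DMSO. Relative to the newly exposed control line, 9, 7, 5 and 6 of the 13 were lower in cabozantinib-resistant lines 1 and 2 and crizotinib-resistant lines 1 and 2, and 1, 2, 2 and 2 higher, with medians of -0.53, -0.44, -0.21 and -0.19. RBMS3, an RNA-binding protein of that list, averaged 6.89, 7.91, 7.61 and 7.44 in those lines, 8.49 and 8.40 in the control line on cabozantinib and crizotinib, and 6.45 on DMSO.

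Of 11 measured ERK output genes, none of them a member, 8, 6, 6 and 10 were lower in cabozantinib-resistant lines 1 and 2 and crizotinib-resistant lines 1 and 2 than on DMSO, with medians of -1.004, -0.68, -0.46 and -1.27. In the control line 10 were lower with each drug, with medians of -2.25 and -2.12. Against the newly exposed control line, 7, 8, 9 and 6 of the 11 were higher in those resistant lines and 1, 0, 0 and 0 lower. The medians of these differences were 0.92, 0.99, 0.66 and 0.55. DUSP6, the phosphatase that limits ERK, averaged 3.61, 3.43, 3.15 and 2.80 in the 4 resistant lines in that order. It averaged 2.65 and 2.75 in the control line on cabozantinib and crizotinib, against 6.42 on DMSO. Of 29 measured matrix genes that are no members, 5 to 10 were higher and 3 to 5 lower in the resistant lines than on DMSO, and 10 higher and 4 lower in the control line with each drug. In these bulk samples, fewer cells that express a gene and less RNA per cell cannot be told apart.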

How the data were processed

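The authors deposited log2 expression values for 34236 probe sets on 21 Affymetrix arrays, made with RMA per the submitters' processing notes; RMA corrects background, quantile-normalizes and summarises probes, and its version is not given in the sources used here. 1 probe set with a missing value was left out and 34235 were used as deposited. The precision is limited by the 3 arrays per group.

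Symbols came from another deposited table of log2 values, joined by equal values (within 1e-06) in its 3 columns headed as controls. The header does not name their samples: they were taken as the DMSO arrays from their number, and only as a key to rows. Its 18 other value columns name no sample and were not used. Of 18910 symbol rows, 18909 matched, naming 18907 probe sets, and 14 with a date in place of a symbol were left out.

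limma 3.58.1 (R 4.3.3) was fitted to all probe sets and all 7 groups (14 residual degrees of freedom), with empirical Bayes and Benjamini-Hochberg adjustment over all probe sets of a contrast, after the script was tested on simulated data. Replicate numbers did not pair arrays: same-numbered arrays of different groups had correlations of deviations from -0.054 to 0.049 over 63 pairs.

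Sequences came from RefSeq (GRCh38.p14): 31 of 32 members matched, 2 by a synonym, and 26 had a promoter entry. The members, the gene lists and the motifs were chosen with earlier results of these data known, and the YAP and TAZ target signature, written from general knowledge, was added after values had been seen. All 32 members are named. From each list up to 4 other genes were eligible, those with the largest mean difference from DMSO in absolute size, and markers were named for defining the cell type. Alternatives were a further quantile normalization, a median shift, a filter on dim probe sets, another prior, the replicate block, fits of fewer groups and leaving out each array.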

Additional observations from a re-analysis of the deposited data

Results flagged for a closer look

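At 7 of the 32 genes the change on resistance differed between the drugs by the limma interaction test, taken as the change for cabozantinib minus that for crizotinib. The differences were -2.18 for THBS1, -1.58 for KCNH1, -0.99 for CGNL1, -0.80 for AKAP3, -0.45 for KLHL24, 0.68 for GLT8D2 and 1.03 for LOC283140. Those of THBS1, KCNH1, CGNL1, GLT8D2 and LOC283140 were called under every alternative setting, whereas those of AKAP3 and KLHL24 were lost without single control arrays, as given above. The p-values rest on arrays within 2 fixed lines per drug. Each difference also contains that between the control line on the 2 drugs, given above.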

How the results depend on the processing

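The rule kept 37 named genes after a further quantile normalization, 31 after shifting arrays to the same median and 34 with group medians, sharing 31 with the 32 each time, and 31 to 39 when 1 array was left out, sharing at least 30. Leaving out 1 array, the members called numbered 13 to 16 and 15 to 19 in cabozantinib-resistant lines 1 and 2, 11 to 15 and 12 to 19 in crizotinib-resistant lines 1 and 2, 0 to 1 between the drugs in the control line, 13 to 18 and 14 to 18 between lines 2 and 1 of cabozantinib and of crizotinib, and 6 to 8 for the difference between drugs in the change on resistance. The count of 12 came without replicate 3 of crizotinib-resistant line 2. Between the drugs in the control line, 1 member (THBS1) in place of 0 was called after a filter on dim probe sets, with a trended, robust prior, or without replicate 2 on crizotinib. Between the crizotinib lines, 11 in place of 17 were called in a fit of those groups alone. With the replicate number as a block the counts were 14, 18, 14, 19, 0, 16, 17 and 8 in the order above, although the numbers do not pair the arrays. Of 107 called comparisons of members, 74 were called under every alternative tried. A further count covers only 50 of these comparisons, picked as the largest called differences in each direction of each contrast. Of their 672 values under alternatives, 652 kept direction and side of the threshold, 20 kept direction only and 0 reversed. Smaller differences are left out of that count. The causes were not tested. Each group has 3 arrays, each resistant line was derived once, and low RMA levels carry no detection calls.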
